A study of Mus musculus with 12 samples.

Results

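The cytosolic heat shock chaperones were followed in the hippocampus and cortex of aged 3xTgAD mice given amitriptyline (AMI) or vehicle. The members were 10 genes chosen by name, Hspa1a, Hspa1b, Hspa8, Hsp90aa1, Hsp90ab1, Dnajb1, Hspb1, Hsph1, Bag3 and Hsf1, through every array probe that carries the symbol. Of these, 8 genes were found by symbol, with 11 of the 25697 probes on each array. Hspa1b and Hsph1 were not matched by symbol. The probe with the symbol Hsp105, an older name of Hsph1 in RefSeq whose transcript accession is also that of Hsph1, is described beside the members and stands outside every count of members.

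The 12 Illumina arrays came from 4 groups of 3, hippocampus AMI, hippocampus vehicle, cortex AMI and cortex vehicle. All mice were male 3xTgAD animals of 18 months. This strain carries mutant human amyloid precursor protein and tau transgenes driven by a neuron-directed Thy1 promoter, with a mutant presenilin-1 knocked into the mouse gene. AMI, a tricyclic antidepressant, was given in the drinking water at 100 µg per g body weight for 4 months from 14 months of age, and the vehicle mice drank plain water. The study's methods have BrdU, a label of dividing cells, injected in mice of both treatments, and no wild-type group was analysed. Which mouse gave which array, and whether mice were pooled, is not given in the sources used here, so the p-values measure the spread between these arrays.

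Chaperones of the Hsp70 and Hsp90 families bind unfolded or partly folded client proteins and use ATP to release them in a folded state. J-domain proteins deliver clients to Hsp70 and stimulate its ATPase, nucleotide exchange factors release the ADP, and small heat shock proteins hold clients without ATP. Under heat or proteotoxic stress, the transcription factor HSF1 is freed from chaperones, binds inverted GAA repeats called heat shock elements and raises transcription of the inducible members. In neurons this system handles tau and other aggregation-prone proteins, and its constitutive members, Hspa8 and Hsp90ab1, are among the abundant proteins of the brain.

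The sequences that bear on this regulation are the heat shock elements upstream of the inducible members. RefSeq promoters (build GRCm38.p6) were at hand for 6 of the 10 genes, in 8 promoters, and their 250 bases upstream of the start were searched for GAANNTTC and TTCNNGAA, each of which reads the same on both strands. Hspa1a and Hspa1b held 1 match each, Hspb1 held 2, and both promoters of Hsph1 held the same match, while none was found in the windows of Bag3 and of the 2 promoters of Dnajb1. Of all 32851 promoters in the same table, 12.8% held at least 1 match, 6.69% the first form and 7.17% the second. The stretches around the matches are shown for the inducible Hsp70 gene, the small heat shock protein and the Hsp110 gene, 5′ to 3′, with the matching letters in capitals. They lie at chr17:34972213-34972300 on the minus strand, chr5:135887762-135887869 on the plus strand and chr5:149636337-149636409 on the minus strand.
Hspa1a: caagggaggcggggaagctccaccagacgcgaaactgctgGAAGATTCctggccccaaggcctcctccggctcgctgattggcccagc
Hspb1: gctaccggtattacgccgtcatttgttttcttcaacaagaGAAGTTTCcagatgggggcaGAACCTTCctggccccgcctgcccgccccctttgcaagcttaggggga
Hsph1: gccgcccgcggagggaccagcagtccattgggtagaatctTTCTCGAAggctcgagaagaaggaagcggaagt

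Counted from the start, the match in Hspa1a began at position -104, those in Hspb1 began at -117 and -97, and that in Hsph1 began at -33 of the farther upstream of its 2 starts in the promoter table. RefSeq's span of Hsph1 begins farther upstream still, so the stretch shown lies inside that span. The stretch shown for Hspa1a was identical in Hspa1b over all 88 bases, and 247 of the 250 upstream bases of this gene pair were equal. The pair lies side by side on chromosome 17. The upstream bases are not part of the transcript that the probe reads. Whether the Hspa1a probe also reads Hspa1b was not tested, which leaves its values uncertain as to gene.

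In RefSeq GRCm38.p6 the members lie on 7 chromosomes. Hspb1 spans chr5:135887919-135889563 and Hsph1 chr5:149616843-149636498, Bag3 lies at chr7:128523583-128546981, Dnajb1 at chr8:83608175-83612653 and Hspa8 at chr9:40801276-40805202. Hsp90aa1 lies at chr12:110691036-110696395 and Hsf1 at chr15:76477362-76501155. Chromosome 17 holds Hspa1b at chr17:34956429-34959238, Hspa1a at chr17:34969359-34972156 and Hsp90ab1 at chr17:45567778-45573261. The probes are placed here by their first base in the transcript, as the array annotation gives it.

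The arrays themselves differed in brightness. Both hippocampal arrays numbered 1, AMI and vehicle, stood apart from the other 4 hippocampal arrays, with a mean log2 signal of 6.73 to 6.93 against 7.15 to 7.38, and results that rest on them are given without them as well. Between 49.0% and 51.7% of probes were detected per array (detection p of 0.05 or less), and the median signal of undetected probes was 52.2 to 73.2. Tissue identity was borne out by dentate granule cell markers, of which 3 of 3 tested (Prox1, Dsp and C1ql2) were higher in hippocampus, by 1.17 at the median on the log2 scale. Of cortical neuron markers, 4 of 5 were higher in cortex and Fezf2 was higher in hippocampus.

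Levels are given as log2 signals scaled to a common mean and SD within each array, where 0 is the mean of all probes on that array. A probe's level is not set against that of another probe, and folds are of these scaled signals. The constitutive chaperones Hspa8 and Hsp90ab1 gave signals far above background, and so did Dnajb1, Hsf1, Bag3 and Hsp105. Hspa8, the constitutive Hsp70 of the cytosol, had raw signals of 1202 to 6008 over the 12 arrays. Its only probe lies at position 25, near the start of the transcript, and the part of RNA quality in its values was not tested. Hsp90ab1, the constitutive Hsp90, was read by 3 probes with raw signals of 3399 to 9720, 1147 to 3791 and 617 to 2137. Dnajb1, the J-domain partner of Hsp70 (1103 to 2728), Hsf1 (732 to 1719), Bag3, a nucleotide exchange factor that guides clients to autophagy (330 to 935), and Hsp105 (1560 to 3472) were detected on all 12 arrays.

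Hspa1a, Hspb1 and Hsp90aa1 were the dim members. Not every inducible gene was dim, since Hsp105, the probe of Hsph1, was bright. Hspa1a, the heat-inducible Hsp70, had raw signals of 86.7 to 192 and Hspb1, the small heat shock protein Hsp27, of 78.0 to 147, both detected on all 12 arrays although close to the level of undetected probes. Of the probes of Hsp90aa1, the inducible Hsp90, that at position 2479 of the transcript was detected on 5 of 6 hippocampal and 4 of 6 cortical arrays with signals of 73.5 to 137. The other, at position 17, was detected on 0 of 12 arrays with signals of 49.4 to 80.0 and was not tested. For the probe at 2479 the array annotation gives no genome coordinates. Whether the low signal of Hsp90aa1 lies in its probes or in its transcript was not tested. Background was not subtracted, so fold differences of these dim probes are compressed. That left 10 probes of 8 genes for testing in each comparison.

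**Figure D1:**
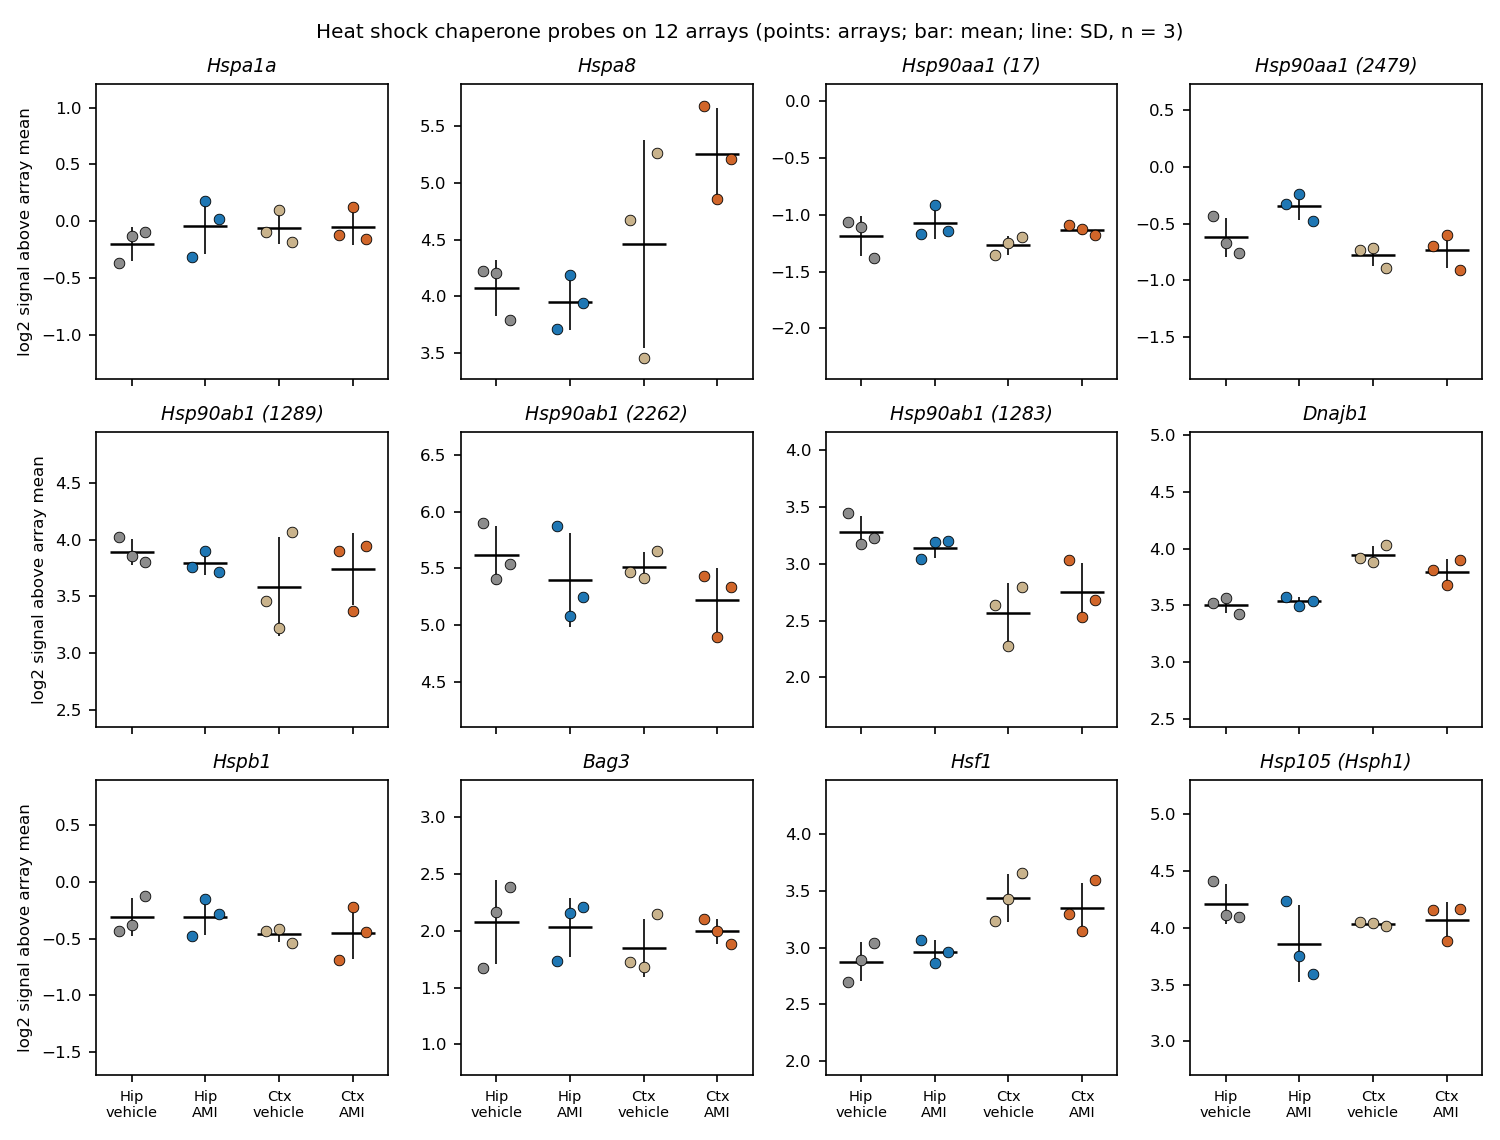
Log2 signal above the array mean (y axis) of each member probe and of Hsp105 on the 12 arrays, by tissue (Hip, hippocampus; Ctx, cortex) and treatment, with the mean and SD of 3 arrays. Numbers in brackets are transcript positions of probes of the same gene, and every panel spans the same log2 range; Hspa8 varied most, from 3.46 to 5.68.

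The first question was whether AMI altered these chaperones in the hippocampus. None of the 10 member probes passed the test at an adjusted p under 0.05 (limma, Benjamini-Hochberg), against 0% of the 13163 probes tested. At an unadjusted p under 0.05 there was 1 member probe, against a background of 2.35% of all tested probes, and the methods' t-test found 0. The AMI and vehicle arrays overlapped for all 10 member probes, where 7.89% of all tested probes did not overlap. The median difference over the members was -0.02 on the log2 scale and 0.01 over all tested probes, with 5 member probes above 0 and 5 below. The hippocampal arrays were also paired by replicate number, although the labels do not say that the numbers are pairs. Within these pairs 3 of the 10 member probes lay on the same side of 0 in all 3, against 31.4% of all tested probes. With the pairs as a block, 0 passed at an adjusted p under 0.05 and 2 of the 10 had an unadjusted limma p under 0.05, against 8.08% of all tested probes.

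The member past the unadjusted threshold was Hsp90aa1. Its levels on the AMI arrays were -0.33, -0.24 and -0.47, and on the vehicle arrays -0.43, -0.67 and -0.76. The groups overlapped narrowly, since vehicle array 1 lay above AMI array 3. The difference was 0.27 (SE 0.12), a 1.21-fold higher signal with AMI, with an unadjusted limma p of 0.0462 and an adjusted p of 0.9996. The paired differences were 0.10, 0.43 and 0.29, and with the pairs as a block the SE was 0.09 and the adjusted p 0.598. Under neqc the difference was larger, 0.50 (SE 0.23, adjusted p = 0.982), and without both hippocampal arrays numbered 1 it was 0.36 with an adjusted p of 0.703.

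For the inducible Hsp70, Hspa1a, the AMI arrays read -0.31, 0.18 and 0.01 and the vehicle arrays -0.37, -0.14 and -0.10. The difference was 0.16 (SE 0.14, adjusted p = 0.9996), smaller than the distance between AMI arrays. Hspb1 read -0.47, -0.15 and -0.28 with AMI and -0.43, -0.38 and -0.12 with vehicle. Its means of -0.30 ± 0.16 and -0.31 ± 0.17 (SD, n = 3) were nearly equal. Dnajb1 was the most even member in this tissue, at 3.58, 3.49 and 3.54 with AMI and 3.52, 3.56 and 3.42 with vehicle.

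Hspa8 was at 3.71, 4.19 and 3.95 on the AMI arrays and 4.22, 4.21 and 3.79 on the vehicle arrays, a difference of -0.12 (SE 0.16). Leaving out both arrays numbered 1 turned this difference to 0.07 with an adjusted p of 0.917. The 3 probes of Hsp90ab1 differed by -0.10, -0.21 and -0.14 between AMI and vehicle, with SEs of 0.10, 0.21 and 0.11. For the probe at 2262 the paired differences were -0.03, -0.32 and -0.29, and with the pairs as a block its SE was 0.09 (adjusted p = 0.611). Hsf1 differed by 0.09 (SE 0.11), or -0.05 without both arrays numbered 1, and Bag3 by -0.04 (SE 0.20). The probe Hsp105, read as Hsph1, a nucleotide exchange factor of the Hsp110 family, was at 4.24, 3.75 and 3.60 with AMI and 4.41, 4.12 and 4.10 with vehicle, which gave -0.34 (SE 0.17, adjusted p = 0.9996) with overlapping groups. Its paired differences were -0.17, -0.37 and -0.50, with an SE of 0.09 and an adjusted p of 0.566 in the blocked fit.

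The intervals show what these arrays could have missed. Under z normalization the 95% interval of the AMI difference reached at most 1.62-fold in either direction over the 10 member probes, for the Hsp90ab1 probe at position 2262, and stayed within 1.18-fold for Dnajb1. For 9 of the 10 probes it lay within 1.5-fold. With neqc, which subtracts background, the widest interval reached 2.04-fold, for Hsp90aa1, and with median centring 1.81-fold, for Hspa8, with 3 of the 10 within 1.5-fold. With 3 arrays against 3, an exact permutation test of a single gene cannot go below a p of 0.1. Markers of other cell types also moved between the hippocampal treatment groups without passing the test: 6 of 6 oligodendrocyte markers were lower with AMI, by 0.47 at the median, with list means of 3.41 to 3.79 on AMI arrays and 3.76 to 4.24 on vehicle arrays. The 3 red blood cell markers were higher with AMI, by 0.76 at the median, with list means of 1.61 to 3.42 against 1.49 to 1.96. The 4 choroid plexus markers tested were lower, by 0.85 at the median, but without vehicle array 3, whose list mean was 3.35 against 0.30 to 0.67 on the other hippocampal arrays, the median was 0.06 higher. Their part in the members' values was not tested, and in whole tissue fewer cells of a type and less RNA per cell cannot be told apart.

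In the cortex the same comparison also gave 0 of 10 member probes at an adjusted p under 0.05, against 0% of the 12944 probes tested. At an unadjusted p under 0.05 there were 0 member probes, where 6.28% of all tested probes passed. No member probe had groups that did not overlap, against 12.2% of all tested probes. The median difference was 0.03 over the members and 0.02 over all tested probes, with 7 member probes above 0 and 3 below.

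Hspa8, read by its only probe at position 25, showed the widest spread of the members here. The cortical AMI arrays were at 5.68, 4.86 and 5.21 and the vehicle arrays at 4.67, 3.46 and 5.26, so vehicle array 2 was the lowest of the 12 arrays and vehicle array 3 lay among the AMI arrays. The difference was 0.79 (SE 0.41), 1.73-fold higher with AMI, with an unadjusted limma p of 0.0868 and an adjusted p of 0.791. Its 95% interval ran from -0.14 to 1.72 on the log2 scale. Leaving out each cortical array in turn gave 0.29 to 1.19, the lowest without vehicle array 2, so this array set much of the difference. Raw signals of Hspa8 were 5765, 6008 and 3159 with AMI and 3152, 1336 and 3352 with vehicle.

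Hsp90ab1 gave unlike differences at its 3 probes in the cortex. The end probe, nearest the 3′ end of the transcript at position 2262, was at 5.44, 4.90 and 5.33 with AMI and 5.47, 5.41 and 5.66 with vehicle, a difference of -0.29 (SE 0.15, adjusted p = 0.789). The probes at 1283 and 1289 differed by 0.18 (SE 0.17) and 0.16 (SE 0.23). These middle probes are almost the same oligonucleotide, which is why both are shown, with the 44 of 50 bases they share in capitals.
Hsp90ab1, position 1283: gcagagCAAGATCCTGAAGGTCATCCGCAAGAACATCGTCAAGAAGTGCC
Hsp90ab1, position 1289: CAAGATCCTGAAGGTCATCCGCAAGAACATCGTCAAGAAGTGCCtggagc

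How far the end probe stood from the mean of the middle probes on an array, relative to the same gap averaged over the 12 arrays, was -0.13, -0.15 and -0.07 on the cortical AMI arrays and 0.33, 0.57 and 0.13 on the cortical vehicle arrays. These groups did not overlap, as was so for 12.5% of the 2328 genes with 2 or more probes tested in the cortex. In the hippocampus it was 0.38, -0.56 and -0.31 with AMI and 0.08, -0.20 and -0.07 with vehicle, and the groups overlapped, where 8.97% of such genes did not. The gap was looked at after its values were seen and has no test.

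None of the remaining cortical members passed between treatments. Dnajb1 was at 3.81, 3.68 and 3.90 with AMI and 3.92, 3.89 and 4.03 with vehicle, a difference of -0.15 (SE 0.10, adjusted p = 0.857). Hspa1a differed by 0.01 (SE 0.12), Hspb1 by 0.01 (SE 0.13), Hsp90aa1 by 0.05 (SE 0.11), Hsf1 by -0.09 (SE 0.15), Bag3 by 0.15 (SE 0.14) and Hsp105 by 0.03 (SE 0.11). The 95% interval lay within 1.5-fold for 7 of the 10 member probes and reached 3.29-fold for Hspa8. Beside these values, the 3 striatal markers tested were lower with AMI in the cortex, by 0.32 at the median, with 1 at an unadjusted p under 0.05. Their list means were 1.65 to 1.79 on AMI arrays and higher on each vehicle array, up to 2.18, and their part in the members' values was not tested.

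**Figure D2:**
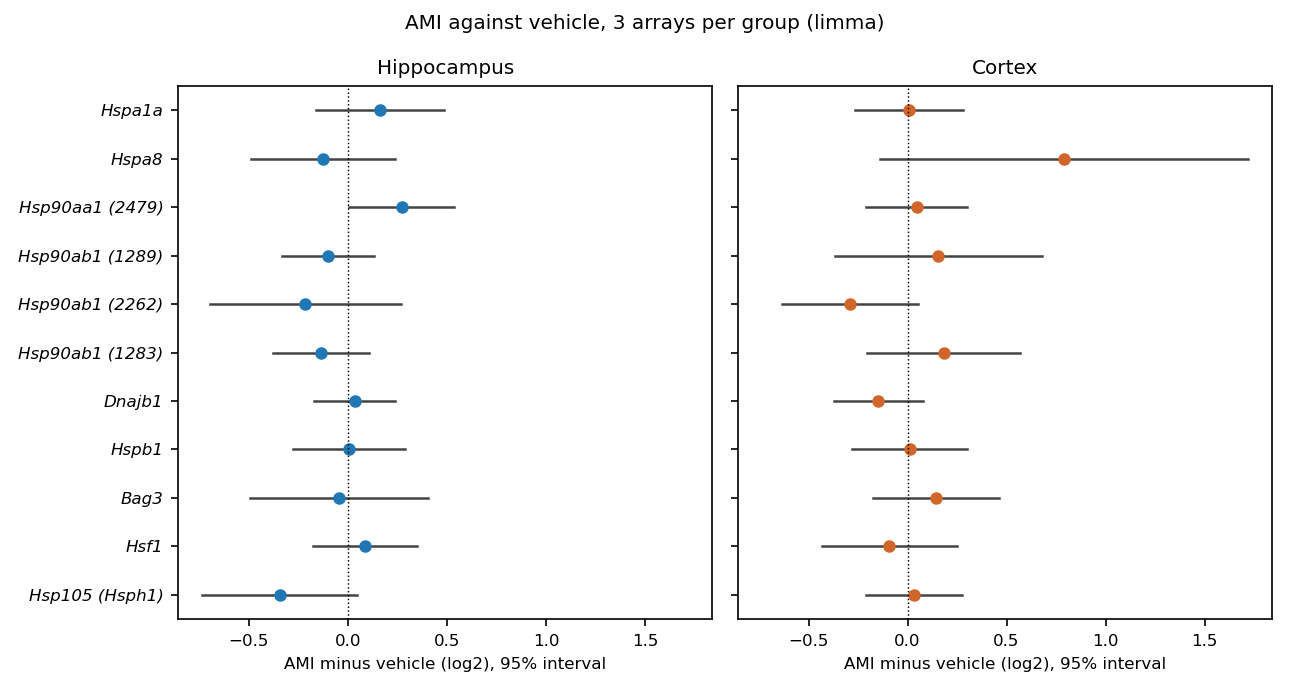
AMI minus vehicle on the log2 scale (x axis) for each tested member probe and Hsp105 in hippocampus and cortex, with 95% limma intervals from 3 arrays per group. The interval of Hsp90aa1 in the hippocampus just clears 0 before adjustment, and that of Hspa8 in the cortex, from -0.14 to 1.72, is the widest.

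Whether AMI acted differently in the tissues was tested as the interaction over the 12 arrays. None of the 10 member probes passed at an adjusted p under 0.05, against 0% of the 13677 tested, and 0 passed at an unadjusted p under 0.05, against 3.17%. The largest member value was that of Hspa8, whose AMI difference was lower in hippocampus than in cortex by -0.91 on the log2 scale (SE 0.50, unadjusted limma p 0.0887, adjusted p 0.9999). The interactions of the other members ranged from -0.32 for Hsp90ab1 at position 1283 to 0.23 for Hsp90aa1.

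The tissues differed more than the treatments. Between hippocampus and cortex, 5 of the 10 member probes passed at an adjusted p under 0.05, where 43.1% of the 13677 probes tested did, so the members' share was near the background. Of these 5, 2 were higher in hippocampus, against 24.4% of all probes, and 3 were lower, against 18.7%. Dnajb1, Hsf1 and Hspa8 were lower in hippocampus and Hsp90aa1 and the 1283 probe of Hsp90ab1 were higher, but under median centring in place of z normalization Dnajb1 turned to 0.15 (adjusted p = 0.464) and Hsf1 and Hspa8 no longer passed. The median absolute difference was 0.228 over the member probes and 0.192 over all tested probes. Groups of 6 arrays did not overlap for 3 of the 10, against 22.3% of all. Tissue coincides with the deposited table and with the software named in the submitters' processing notes, which cannot be told apart from it.

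Dnajb1 separated the tissues on every array after this scaling. The hippocampal arrays read 3.42 to 3.58 with a median of 3.53, and the cortical arrays 3.68 to 4.03 with a median of 3.89. The difference of -0.35 (SE 0.06, adjusted p = 0.000607) corresponds to a scaled signal 0.783 times that of cortex. Raw median signals went the other way, 2037 in hippocampus and 1740 in cortex, and median centring gave 0.15 (adjusted p = 0.464). With vehicle arrays only the z-normalized difference was -0.44 (adjusted p = 0.0139) and with AMI arrays only -0.26 (adjusted p = 0.0779).

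Hsf1, the transcription factor of the heat shock response, read 2.70 to 3.07 in hippocampus, with a median of 2.93, and 3.15 to 3.66 in cortex, with a median of 3.36, again without overlap. The difference was -0.47 (SE 0.10, adjusted p = 0.0020). It was -0.56 (adjusted p = 0.0241) in vehicle arrays only and -0.38 (adjusted p = 0.0532) in AMI arrays only. Raw median signals of Hsf1 were 1390 in hippocampus and 1239 in cortex, and median centring gave -0.03 (adjusted p = 0.890).

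Hspa8 read 3.71 to 4.22 in hippocampus, with a median of 4.07, and 3.46 to 5.68 in cortex, with a median of 5.04. The difference of -0.85 (SE 0.25, adjusted p = 0.0147) was the largest among the members, and the groups overlapped through cortical vehicle array 2. Within AMI arrays it was -1.30 (adjusted p = 0.0018) and within vehicle arrays -0.39 (adjusted p = 0.517). The methods' t-test gave an adjusted p of 0.0596 for this gene, a loss of the call.

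The Hsp90 genes lay on the other side. Hsp90aa1 read -0.76 to -0.24 in hippocampus, with a median of -0.45, and -0.90 to -0.60 in cortex, with a median of -0.73, a difference of 0.27 (SE 0.08, adjusted p = 0.0148). Without both hippocampal arrays numbered 1 it was 0.22 and missed the threshold (adjusted p = 0.0511), as it did in vehicle arrays only (0.16, adjusted p = 0.356). The 1283 probe of Hsp90ab1 read 3.04 to 3.44 in hippocampus, with a median of 3.20, and 2.28 to 3.03 in cortex, with a median of 2.66. Its groups met closely without overlap, with a difference of 0.55 (SE 0.11, adjusted p = 0.0011), a 1.47-fold higher signal. In AMI arrays only it was 0.39 and missed the threshold (adjusted p = 0.0566), in vehicle arrays only 0.71 (adjusted p = 0.0123), and under median centring 0.97.

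The other probes of Hsp90ab1 were less apart. That at 1289, which shares 44 of its bases with the probe above, differed by 0.18 (SE 0.14, adjusted p = 0.313) and that at 2262 by 0.14 (SE 0.14, adjusted p = 0.461). All 3 were above 0 in hippocampus under the 4 scalings, and the 2262 probe passed under quantile normalization (0.29, adjusted p = 0.0023), neqc (0.29, adjusted p = 0.0070) and median centring (0.82, adjusted p = 0.00031). Without both hippocampal arrays numbered 1 the 2262 probe lay at -0.05 (adjusted p = 0.729).

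The remaining members, Hspa1a, Hspb1 and Bag3, did not pass between the tissues. Hspa1a differed by -0.06 (SE 0.10), with a 95% interval of -0.27 to 0.14, and Hspb1 by 0.15 (SE 0.09). Bag3 differed by 0.13 (SE 0.13) and passed without both hippocampal arrays numbered 1 (0.31, adjusted p = 0.0307) and with array weights (0.25, adjusted p = 0.0258). Hspb1 passed with array weights (0.21, adjusted p = 0.0274). Hsp105 differed by -0.02 (SE 0.11), and under median centring it turned to 0.50 (adjusted p = 0.0053).

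Median centring, which leaves the spread of each array as it is, moved the median difference of all tested probes by 0.16 on the log2 scale, to 0.19, and the share of calls that were higher in hippocampus from 56.6% to 84.7%. Under quantile normalization the share was 50.7% and under neqc 50.8%. Relative to that shifted median, Dnajb1 lay at -0.04, Hsf1 at -0.21, Hspa8 at -0.44, Hspa1a at -0.18 and Hspb1 at -0.004. The Hsp90ab1 probes at 1289, 2262 and 1283 lay at 0.51, 0.63 and 0.78, Hsp105 at 0.31, Bag3 at 0.26 and Hsp90aa1 at 0.09. Subtracting a median does not remove the difference in spread between arrays. Arrays of the hippocampus had SDs of log2 signal of 1.51 to 1.85, and those of the cortex 1.42 to 1.68.

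**Figure D3:**
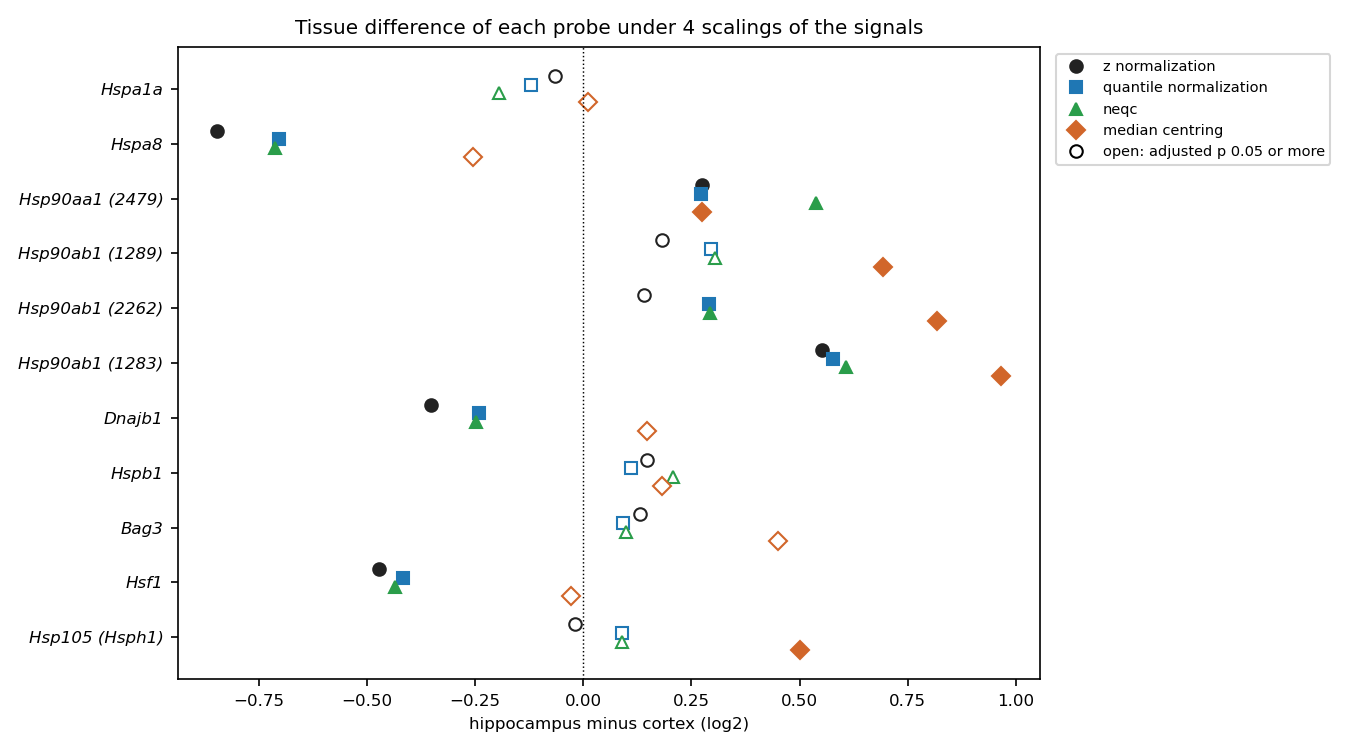
Hippocampus minus cortex on the log2 scale (x axis) for each tested member probe and Hsp105 under z normalization, quantile normalization, neqc and median centring, with filled symbols where the adjusted p was under 0.05. Median centring lies to the right of the other scalings for the bright probes, turning Dnajb1 from -0.35 to 0.15 and Hsp105 from -0.02 to 0.50, and neqc sets the dim Hsp90aa1 at 0.54 against 0.27 under z normalization.

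Cell type markers differed between the tissues alongside the members. At an adjusted p under 0.05, 7 of 8 microglial markers were higher in hippocampus, and all 8 lay above 0, by 0.46 at the median. Their list means were 1.22 to 1.71 against 0.76 to 1.07 in cortex. At the same threshold 4 of 6 oligodendrocyte markers, 3 of 3 striatal markers (by 1.34 at the median) and 2 of 7 endothelial markers were lower. Of 4 neuronal markers 1, Slc17a7, passed as lower. Every marker of these lower lists lay below 0, whether it passed or not. Of 6 astrocyte markers, Gfap was higher in hippocampus (1.77), Aqp4 (-0.39) and Slc1a2 (-0.29) were lower, and the list median was -0.14. Under median centring none of the oligodendrocyte, endothelial and neuronal calls remained, and Flt1, Aqp4 and Slc1a2 turned direction. Slc17a7 also missed the threshold under quantile normalization (adjusted p = 0.0571) and neqc (adjusted p = 0.0660). The immediate early genes Fos, Egr1 and Dusp1, which respond to neuronal activity and handling, differed by -0.91, -1.18 and -1.02, hippocampus minus cortex. Under median centring these were -0.76, -0.54 and -0.63, and Dusp1 no longer passed (adjusted p = 0.0552). Their list means were 1.48 to 2.21 in hippocampus and 1.95 to 3.03 in cortex. The part of these in the members' tissue differences was not tested.

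The wider chaperone network was taken from 8 lists of partners and relatives with 52 tested genes. For AMI against vehicle, 0 of 52 passed in the hippocampus and 0 of 51 in the cortex at an adjusted p under 0.05, and 3 and 5 did so at an unadjusted p under 0.05, where 2.35% and 6.28% of all tested probes did. Between tissues 25 of 52 passed, 11 higher in hippocampus and 14 lower, which is 48.1% against the 43.1% of all probes. Under median centring 7 of these 25 turned direction, none of them past the threshold there, and 14 kept both direction and call.

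Among relatives of Hsp70, Hspa2 (0.47) and Hspa4 (0.42), an Hsp110 protein, were higher in hippocampus and all 5 tested were above 0. Of 10 other J-domain proteins 3 passed as higher, Dnaja2 (0.50), Dnajb5 (0.29) and Dnajc8 (0.25), and 3 as lower, Dnajb4 (-0.56), Dnajb2 (-0.51) and Dnajc7 (-0.34). Dnajc7 reached 0.14 under median centring. Of 5 nucleotide exchange factors tested, Hspbp1 (-0.84) and Bag5 (-0.21) were lower in hippocampus, with Bag5 at 0.13 under median centring.

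Among 10 co-chaperones of Hsp90, Fkbp5, an immunophilin induced by glucocorticoids, was higher in hippocampus by 0.81 (SE 0.08), 1.76-fold, and Ptges3, the p23 protein, by 0.31. Fkbp4, the immunophilin related to Fkbp5 (-0.45), Unc45a (-0.40) and Ppid (-0.35) were lower, although Fkbp4 and Ppid lay at 0.02 and 0.09 under median centring. Of other small heat shock proteins Hspb3 was lower (-0.45), and Cryab, the abundant small heat shock protein of glia, did not pass at -0.35 (adjusted p = 0.0701). Of the other heat shock factors, Hsf2 was higher (0.44) and Hsf4 lower (-0.55) in hippocampus, both also past the threshold under the other 3 scalings.

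Of 6 tested subunits of the chaperonin TRiC, which folds actin and tubulin, 1 passed as higher in hippocampus, Cct7 (0.19). Tcp1 (-0.30) and Cct6a (-0.26) passed as lower, and turned to 0.20 and 0.32 under median centring. Chaperones of the mitochondria and endoplasmic reticulum split as well. Hspe1, the mitochondrial Hsp10, was higher by 0.95, 1.93-fold, and Pdia4 by 0.21, while Hspa9, the mitochondrial Hsp70 (-0.47), and Calr (-0.40) were lower, with Hspa9 at 0.14 under median centring.

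**Figure D4:**
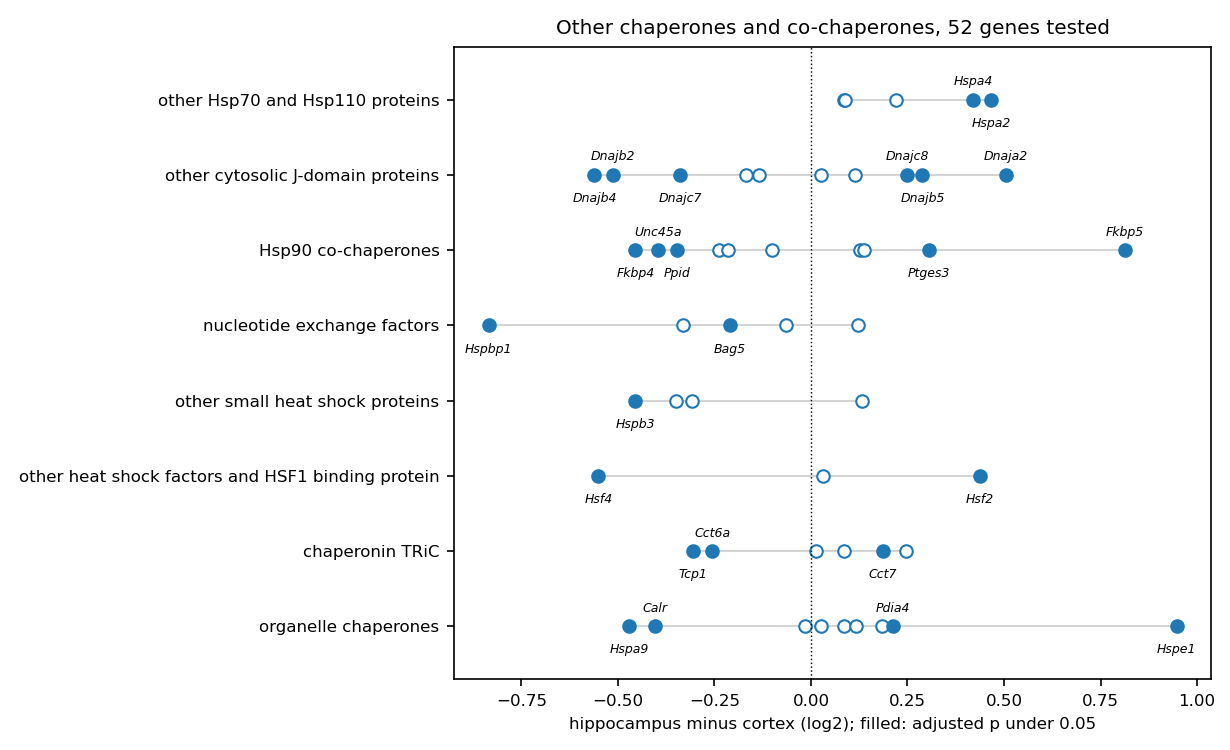
Hippocampus minus cortex on the log2 scale (x axis, z normalization) for the 52 tested genes of the 8 lists, with filled points where the adjusted p was under 0.05. Calls lie on both sides of 0 in 5 of the 8 lists, from Hspbp1 at -0.84 to Hspe1 at 0.95; under median centring 7 of the 25 called genes change side.

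How the members varied among themselves was described by the deviations of the 12 arrays from their group means. Hspa8, read at position 25 of its transcript, moved with the middle probes of Hsp90ab1, with Pearson's r of 0.88 for position 1283 and 0.84 for 1289, and less with the end probe (r = 0.21). The end probe of Hsp90ab1 moved with Hsp105 (r = 0.89) and against Hspa1a (r = -0.94). Hspa1a moved with Hspb1 (r = 0.78), which was also read by a dim probe. On hippocampal AMI arrays 1 and 2, with SDs of log2 signal of 1.51 and 1.85, the end probe read 5.87 and 5.08. Hspa1a read -0.31 and 0.18 on the same arrays. The part of the array SD, by which the signals are divided, in these coefficients was not tested. All of these coefficients rest on 12 arrays that share tissue, treatment and brightness.

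Over all tested genes, those most like Hspa8 were Nup50 (r = 0.99), a nuclear pore protein, Eif4g2 (r = 0.99), a translation initiation factor, and Eef2 (r = 0.97), the translation elongation factor that moves the ribosome. Eif4g2 was at 1.45, 1.06 and 1.31 on the cortical AMI arrays and 0.80, 0.24 and 1.16 on the cortical vehicle arrays, with vehicle array 2 lowest as for Hspa8. Nup50 ranged only from -0.88 to -0.37 over the 12 arrays. For Bag3 the most similar genes were Pml, E2f2 and Pepd (r = 0.97 each), for Dnajb1 Kctd2 (r = 0.94) and for Hsf1 Mfge8 (r = 0.95). For Hspa1a and Hspb1 they were 9530096D07Rik (r = 0.98) and Rbpms2 (r = 0.96), and for Hsp90aa1 C1qtnf3 (r = 0.96). For the end probe of Hsp90ab1 they were LOC100042427, EG625054 and Gars (r = 0.98, 0.98 and 0.97).

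**Figure D5:**
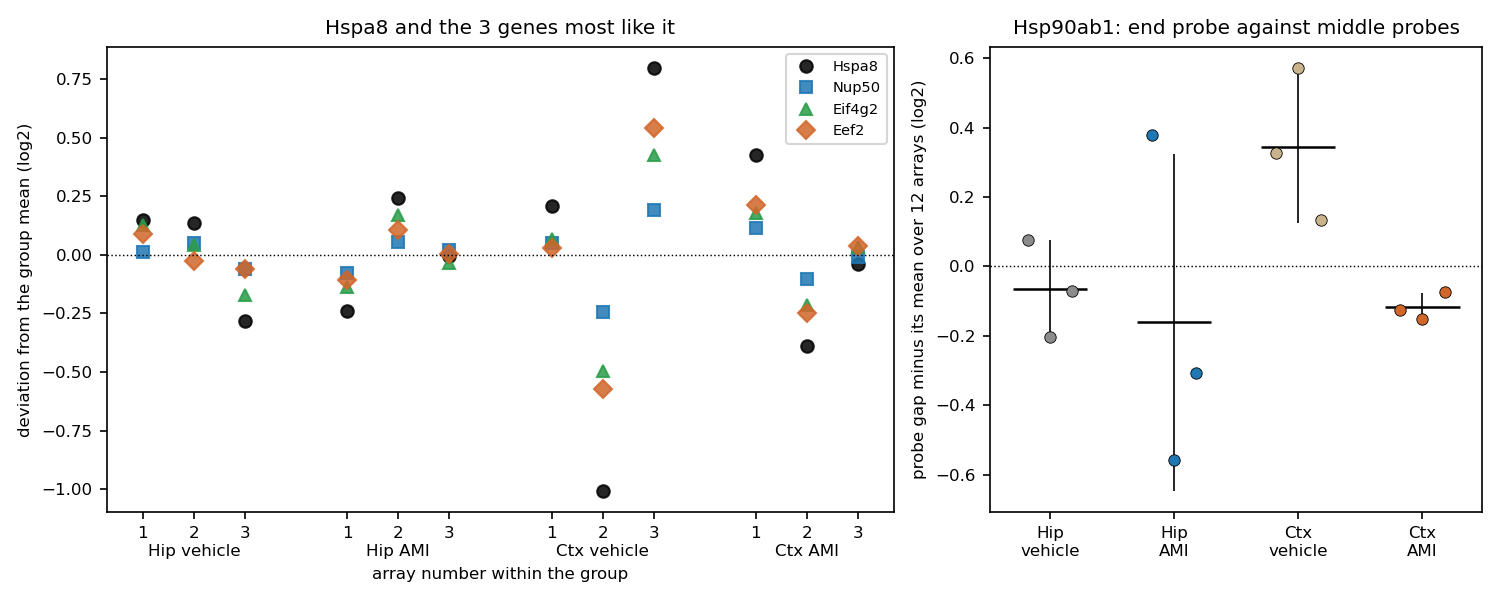
Left, deviation from the group mean (y axis, log2) of Hspa8 and the 3 genes most like it on each array; cortical vehicle array 2 is lowest for all 4 genes. Right, the log2 gap between the end probe and the mean of the middle probes of Hsp90ab1, minus its mean over the 12 arrays, with mean and SD of 3 arrays, which is -0.15 to -0.07 in cortical AMI and 0.13 to 0.57 in cortical vehicle.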

How the data were processed

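Each probe has an intensity, its bead signal averaged on a linear scale, which the authors deposited before any normalization or background subtraction. Its detection p-value on that array was deposited beside it. The submitters' processing notes name BeadStudio 3.4 for hippocampus and GenomeStudio 1.1.1 for cortex. Arrays were grouped by their labels. Here the log2 intensities of an array were turned into z scores over its 25697 probes, then rescaled by 1.60, the average of the 12 array SDs, with no constant added. Probes entered a test when detected, at p of 0.05 or less, by 3 or more of the 6 arrays (for tissue and interaction, by 3 arrays of either tissue). They were tested with limma 3.58.1 in R 4.3.3 (lmFit, eBayes), with Benjamini-Hochberg adjustment over all tested probes and intervals at 95%. Each tissue was fitted on its 6 arrays, and the tissue contrast (mean of both hippocampal groups minus mean of both cortical groups) and the interaction on all 12. The number of arrays limits the precision.

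The members and lists were chosen with earlier results of these data known. All member probes are named. Of the lists, up to 3 called genes per direction with the largest differences are named, by the probe with the highest mean signal (Cryab was named after its values were seen), and for likeness the 3 genes with the highest r. Promoters and gene names came from RefSeq GRCm38.p6. Scripts were tested on simulated data. Python 3.11.15 with numpy 2.4.6, pandas 2.3.3 and matplotlib 3.10.9 made tables and figures. Alternatives were median centring, quantile normalization, limma's neqc (offset 16), no detection filter, detection on every array, a variance trend with robust fitting, array weights, the methods' t-test, the study's cutoffs (an absolute z ratio of 1.5 or more, p of 0.05 or less, false discovery rate under 0.3), both tissues in 1 fit, the replicate number as a block, arrays of 1 treatment, the mean of the probes of Hsp90ab1, and leaving out each array in turn. Leaving out both hippocampal arrays numbered 1 was added after seeing the data.

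Replicate numbers are shared by the groups. Deviations of same-numbered hippocampal AMI and vehicle arrays correlated at 0.61, 0.30 and 0.29. AMI array 3 with vehicle array 2 gave 0.28, and AMI array 2 with vehicle array 3 gave 0.17. These values set both arrays numbered 1 apart from the rest but do not tell numbers 2 and 3 apart. The labels do not say that the numbers are pairs, so pairing by number in the hippocampus is an assumption. In the cortex the same-numbered values were -0.06, 0.33 and 0.33, and between tissues -0.33 to 0.08. Neither was paired by number outside the alternative settings.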

Additional observations from a re-analysis of the deposited data

How the results depend on the processing

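Of 869 single-probe values under 27 alternative settings, 850 kept their side of the threshold and 69 had the other sign. For AMI against vehicle and for the interaction, no member probe passed under any alternative, with smallest adjusted p of 0.484 in hippocampus, 0.0668 in cortex (Hspa8 with array weights, 1.22) and 0.145 for the interaction. The member values of the other sign were 16 of 170 in hippocampus, 18 of 160 in cortex and 15 of 220 for the interaction. Over all probes, leaving out 1 array gave 0 to 1 calls in hippocampus (1 without AMI array 2) and 0 to 1 in cortex. In cortex array weights, neqc and the trend with robust fitting gave 2 calls each and the study's cutoffs 3. The main settings used here gave 0 in each tissue. The paper lists more altered genes in each tissue from its own software, which was not rerun here.

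Between tissues, the 5891 calls over all probes became 3573 in AMI arrays only, 2743 in vehicle arrays only and 2714 under the study's cutoffs, and 5087 to 5911 on leaving out 1 array. The 5 member calls became 2, 3 and 3, and 5 to 6. The call held for Hspa8 under 21 of 24 alternatives, for Hsp90aa1 under 21 of 23, for the 1283 probe of Hsp90ab1 under 23 of 24 and for Dnajb1 and Hsf1 under 22 of 24 each. The 1289 probe passed without cortex vehicle array 3 (0.30, adjusted p = 0.0380) and under median centring (0.69, adjusted p = 0.0063). Median centring, which unlike z normalization does not divide by the SD of each array, turned Dnajb1 to 0.15 and Hsp105 to 0.50. Which scaling lies nearer the tissue levels was not tested.

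With the replicate block, which uses the shared replicate numbers as pairs, no member call changed, while in hippocampus the probes at an unadjusted p under 0.05 rose from 309 to 1063 of 13163. Hsp90aa1 in hippocampus had an adjusted p of 0.598 and Hspa8 in cortex 0.473, and the tissue comparison gave 5420 calls over all probes and 5 over the members. The probes of Hspa1a, Hspb1 and Hsp90aa1 were dim and near background, which limits what these arrays can show of these genes.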
